A study of Rattus rattus with 18 samples.

Results

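The genes *Nfkbia* (ENSRNOG00000007390), *Bcl3* (ENSRNOG00000043416), *Gadd45b* (ENSRNOG00000019822) and *Cebpd* (ENSRNOG00000050869) were followed through every ARC library at hand. These 4 genes, out of 32883 in the count tables, were taken by their identifiers as feedback and acute response genes of NF-kB signalling. They were chosen by name rather than by a threshold on a measured value, but with earlier results on these libraries known. All 4 passed the filter on low counts in both experiments.

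NF-kB is a family of transcription factors that waits in the cytoplasm, held by inhibitors of the IkB family, until cytokines, bacterial products or tissue injury trigger the breakdown of these inhibitors. Once in the nucleus it switches on genes of inflammation and also its own brakes, so that the response ends. *Nfkbia* encodes IkB-alpha, the best known of these brakes, and *Bcl3* encodes a nuclear IkB protein that binds the p50 and p52 subunits and can raise or lower the transcription of their targets. *Gadd45b* encodes a small stress protein that is induced by NF-kB and restrains JNK signalling, and *Cebpd* encodes C/EBP-delta, a transcription factor of the acute phase response that is low in resting tissue and induced by inflammatory cytokines.

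The libraries came from the arcuate nucleus (ARC) of female Wistar rats, with 1 library per rat, and bulk MARS-seq was used, which counts the ends of transcripts. In the diet-induced obesity (DIO) experiment CS rats ate chow and were sedentary (n = 3), HFS rats ate a diet with 60% of its energy from fat and were sedentary (n = 3), and HFR rats ate that diet and had a running wheel (n = 4). The diets began on postnatal day 21, and from day 90 the rats were housed singly for 4 weeks with or without a wheel. In the miR-211 experiment chow-fed rats that arrived on postnatal day 60 were given a cannula into the third ventricle. After an overnight fast they were infused with 2.5 µL at 1 µg/µL of either a synthetic mimic of hsa-miR-211 (n = 4) or a hairpin inhibitor of it (n = 4), both carried by the transfection reagent BrainFectIN, and the ARC was taken 6 h later, after refeeding. All rats of this experiment thus shared the surgery, the carrier and the fast. Food intake after the fast was not matched, since the paper reports that the mimic group ate less than the inhibitor group before tissue collection. The part of food intake in the values of the 4 genes was not tested. The running chow-fed group and the negative control oligonucleotide were not analysed here, so the mimic and the inhibitor were compared only with each other, and a difference between them cannot be assigned to either agent.

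The DIO libraries held 4680736 to 7494207 counts each, and those of the miR-211 experiment 1275263 to 6615927. CS replicate 2 and HFS replicate 2 matched none of the 14 per-animal columns of the study's gene table, whereas the other 8 DIO libraries each matched a column, so the DIO values of the 4 genes are also given without both. The 5 joined markers of arcuate neurons (of 10 listed, *Pomc* and *Ghrh* among them) were present in every group, with a summed level of 1694.5 to 2748.1 CPM per library. Levels are normalized counts (CPM, scaled to library size with TMM factors), and a library stands for the punched tissue as a whole. Fewer cells of a type and less RNA per cell cannot be told apart in such bulk samples. Reads were counted without strand, so that reads of a gene and of an overlapping antisense partner cannot be told apart either.

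*Nfkbia*, the IkB-alpha gene, was measured at 101.0, 86.0, 64.0 and 102.2 CPM in mimic replicates 1 to 4 and at 220.0, 489.6, 201.8 and 289.0 CPM in inhibitor replicates 1 to 4. The lowest inhibitor library lay above the highest mimic library, and inhibitor replicate 2 stood highest. The means were 88.3 ± 17.8 (SD, n = 4) in mimic and 300.1 ± 131.8 (SD, n = 4) in inhibitor, a ratio of 3.4 between inhibitor and mimic. The log2 fold change of mimic against inhibitor was -1.77 (SE 0.30), with an edgeR adjusted p of 0.0522, just short of the threshold of 0.05. It passed that threshold without inhibitor replicate 1 (adjusted p = 0.0327), 2 (0.00916) or 3 (0.0291) in the same edgeR test, and in DESeq2 (adjusted p = 4.37e-08). It did not pass without mimic replicate 1 (edgeR adjusted p = 0.141), 2 (0.18), 3 (0.168) or 4 (0.0957), without inhibitor replicate 4 (0.132) or with no filter on low counts (0.112).

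In the DIO experiment *Nfkbia* was at 51.1, 50.4 and 27.5 CPM in CS, at 77.4, 62.1 and 56.5 CPM in HFS and at 50.7, 61.2, 33.9 and 39.1 CPM in HFR, in replicate order. Every HFS library lay above every CS library, and the HFR libraries overlapped both. The mean was 65.3 ± 10.8 CPM in HFS and 43 ± 13.4 CPM in CS (SD, n = 3 each). The log2 fold change of HFS against CS was 0.60 (SE 0.25, edgeR adjusted p = 0.994). HFR had a mean of 46.2 ± 12.2 CPM (SD, n = 4), with a log2 fold change of -0.50 against HFS (SE 0.23) and of 0.10 against CS (SE 0.24). Neither passed the test. Leaving out single libraries gave 0.36 (without CS replicate 3) to 0.74 for HFS against CS. Without CS replicate 2 and HFS replicate 2 the HFS against CS value was 0.77 (edgeR adjusted p = 0.592), HFR against HFS stood at -0.53 and HFR against CS at 0.24.

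*Bcl3*, the nuclear IkB gene, was at 18.8, 23.8, 15.8 and 35.4 CPM in the mimic libraries and at 53.2, 108.4, 61.7 and 77.5 CPM in the inhibitor libraries. All 4 inhibitor libraries were above all 4 mimic libraries. The mean was 23.4 ± 8.62 CPM (SD, n = 4) in mimic and 75.2 ± 24.3 CPM (SD, n = 4) in inhibitor, a ratio of 3.21. *Bcl3* was lower in mimic than in inhibitor by edgeR, with a log2 fold change of -1.74 (SE 0.28, adjusted p = 0.0361). The call was lost without mimic replicate 1 (edgeR adjusted p = 0.119), mimic replicate 2 or 3 (0.136 each) or inhibitor replicate 4 (0.103), with log2 fold changes between -1.96 and -1.53 when any of the 8 libraries was left out.

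The level of *Bcl3* in the DIO libraries was near the limit of these data. CS libraries had 1.5, 3.56 and 1.29 CPM, from 8, 20 and 6 counts, and HFS libraries had 3.28, 2.88 and 2.40 CPM, from 19, 18 and 15 counts. HFR libraries had 0.80, 0.92, 2.98 and 2.31 CPM, from 4, 5, 14 and 17 counts. The 3 groups overlapped, and HFR held both the lowest libraries and a library within the HFS range. Log2 fold changes were 0.41 (SE 0.60) for HFS against CS, -0.28 (SE 0.58) for HFR against CS and -0.69 (SE 0.56) for HFR against HFS, none past the threshold. Without CS replicate 2 and HFS replicate 2 the HFR against CS value turned to 0.34, HFS against CS stood at 1.02 (edgeR adjusted p = 0.778) and HFR against HFS at -0.68. Single libraries moved HFS against CS between 0.17 and 1.02.

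*Gadd45b*, the stress-induced restraint on JNK, was at 31.3, 30.9, 29.9 and 45.6 CPM in mimic and at 96.7, 176.6, 84.6 and 93.9 CPM in inhibitor. In each group 3 values lay close together, with mimic replicate 4 and inhibitor replicate 2 above the rest of their groups, and the groups did not overlap. The means were 34.4 ± 7.48 CPM (SD, n = 4) and 112.9 ± 42.7 CPM (SD, n = 4), a ratio of 3.28. The log2 fold change of mimic against inhibitor was -1.73 (SE 0.25, edgeR adjusted p = 0.0298), which made *Gadd45b* lower in mimic and placed it 7 in order of p among 9625 genes. This call, too, was lost without mimic replicate 1 (edgeR adjusted p = 0.119), 2 (0.105) or 3 (0.136) or inhibitor replicate 4 (0.103), while the log2 fold change stayed between -1.87 and -1.44.

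In the DIO experiment *Gadd45b* was at 11.8, 26.7 and 16.5 CPM in CS, at 22.6, 23.4 and 19.4 CPM in HFS and at 21.3, 21.2, 9.16 and 27.0 CPM in HFR. HFR held both the lowest and the highest of the 10 values. The log2 fold change was 0.24 (SE 0.35) for HFS against CS, 0.11 (SE 0.33) for HFR against CS and -0.14 (SE 0.32) for HFR against HFS. None passed the test, and all 3 moved with single libraries. HFS against CS was 0 without CS replicate 1 and 0.63 without CS replicate 2. HFR against CS was -0.12 and 0.5 without these libraries and -0.09 without HFR replicate 4, and HFR against HFS turned to 0.09 without HFR replicate 3. Without CS replicate 2 and HFS replicate 2 together the values were 0.58 for HFS against CS, 0.5 for HFR against CS and -0.08 for HFR against HFS.

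*Cebpd*, the acute phase transcription factor, was at 181.8, 228.4, 95.5 and 247.6 CPM in mimic and at 418.5, 893.1, 453.5 and 721.4 CPM in inhibitor. Here again no mimic library reached the lowest inhibitor library, and mimic replicate 3 stood well below the other mimic libraries. The means were 188.3 ± 67.8 CPM (SD, n = 4) and 621.6 ± 226.0 CPM (SD, n = 4), a ratio of 3.3. The log2 fold change of mimic against inhibitor was -1.73 (SE 0.36, edgeR adjusted p = 0.116), which did not pass the threshold. Leaving out any single library left it between -1.88 and -1.51 and never past the threshold (edgeR adjusted p from 0.0745 to 0.277), whereas DESeq2 called it (adjusted p = 2.37e-06).

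In the DIO experiment *Cebpd* was at 15.9, 18 and 11.8 CPM in CS, at 35.5, 23.0 and 24.0 CPM in HFS and at 8.77, 27.3, 19.6 and 15.5 CPM in HFR. The HFS libraries were all above the CS libraries, and the HFR libraries spread from below CS to above 2 of the HFS libraries. The mean was 27.5 ± 6.94 CPM in HFS and 15.2 ± 3.15 CPM in CS (SD, n = 3 each), and the log2 fold change of HFS against CS was 0.85 (SE 0.33, edgeR adjusted p = 0.994). It lay between 0.62 (without HFS replicate 1) and 0.99 without single libraries, and without CS replicate 2 and HFS replicate 2 it was 1.1 (edgeR adjusted p = 0.556). The HFR mean of 17.8 ± 7.74 CPM (SD, n = 4) gave log2 fold changes of -0.63 (SE 0.31) against HFS and 0.22 (SE 0.32) against CS, neither past the threshold (-0.74 and 0.37 without those libraries). *Cebpd* is also in the study's table of diet genes, which was selected on animals that include 8 of these libraries, so its direction is not independent of that selection.

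**Figure D1:**
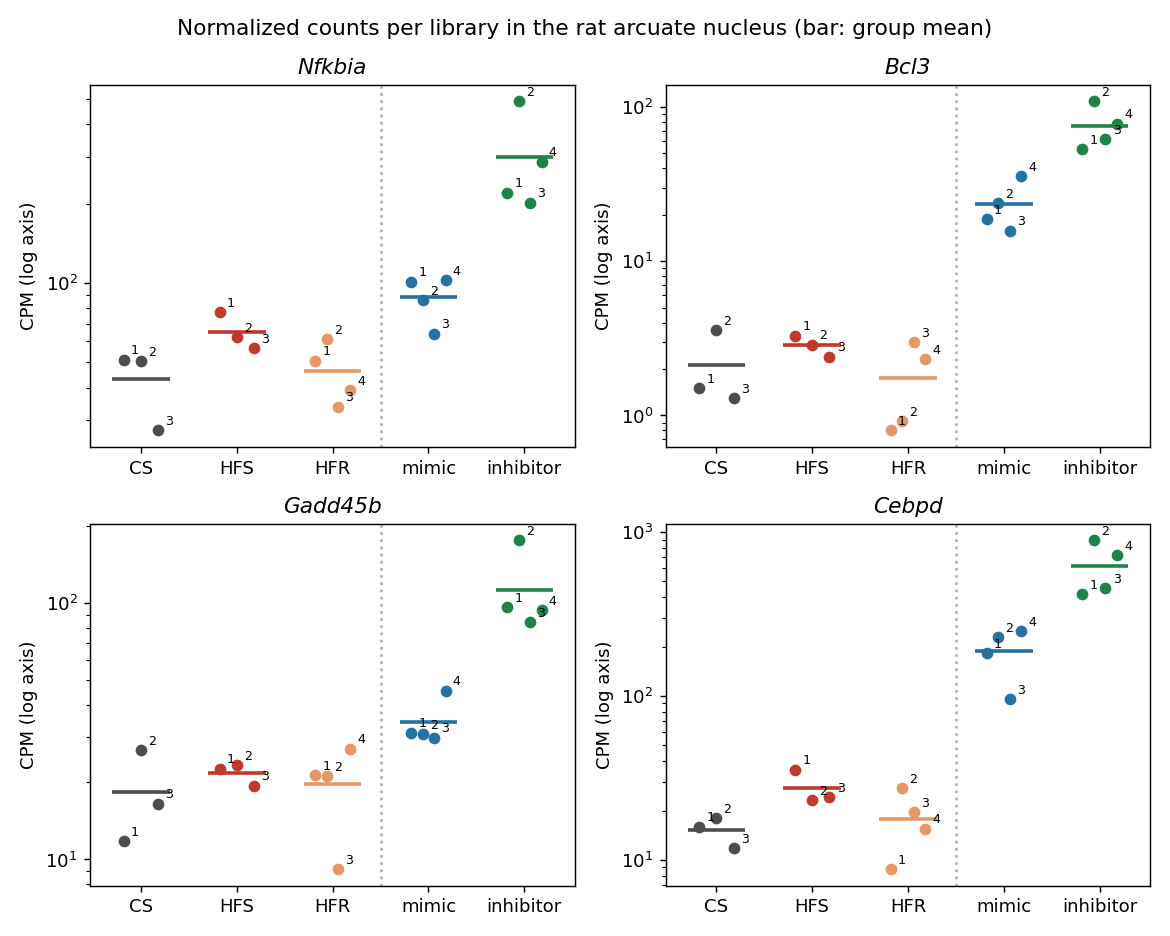
Normalized counts of the 4 genes in each of the 18 libraries, in CPM on a log axis, by group, with the replicate number beside each point and a bar at the group mean. For all 4 genes each inhibitor library lies above each mimic library, while of the DIO groups only HFS and CS stand apart, and only for Nfkbia and Cebpd.

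Set side by side, mimic against inhibitor gave 2 genes past the threshold of the 4, *Bcl3* and *Gadd45b*, both lower in mimic. Over all genes 43 of 9625 (0.447%) were called in that comparison, 42 of them (0.436%) lower in mimic. The 4 genes had log2 fold changes of -1.77 to -1.73, but the SE ranged from 0.25 to 0.36 and the edgeR adjusted p from 0.0298 to 0.116. The SE was computed back from the edgeR test statistic, so it is not separate from the p. With DESeq2 all 4 were called, against 1.58% of genes called lower by that tool. All 4 also had groups that did not overlap, as did 3.71% of genes in this direction. An exact two-sided permutation test over the libraries gave p = 0.0286 for each gene, which is the smallest value that 4 libraries against 4 allow. The study lists all 4 genes in its own table of genes that differed between these libraries, so these tests are not evidence independent of that choice.

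None of the 4 genes was called in a DIO comparison. The share of all 11892 genes called there by edgeR was 0.00841% (1 gene) for HFS against CS, 0.0168% (2 genes) for HFR against CS and 0% (0 genes) for HFR against HFS. In the last comparison 504 genes had an unadjusted p under 0.05, and DESeq2 called 0. Of the 4 genes, 2 (*Nfkbia* and *Cebpd*) were higher in every HFS library than in every CS library, as were 4.81% of all genes, and these 2 had an unadjusted p under 0.05 in that direction (2.6% of genes). That p was no longer under 0.05 for *Nfkbia* without CS replicate 3, HFS replicate 1 or HFS replicate 2 (log2 fold changes of 0.36, 0.46 and 0.64), nor for *Cebpd* without CS replicate 3 or HFS replicate 1 (0.7 and 0.62). Exact two-sided permutation tests gave p = 0.1 for both, the smallest value that 3 libraries against 3 allow, 0.4 for *Bcl3* and 0.5 for *Gadd45b*. No gene of the 4 had non-overlapping groups in HFR against CS (5.47% of all genes) or in HFR against HFS (6.84%), and the exact permutation p was at least 0.686 in the former and 0.114 in the latter. The HFS libraries enter both HFS against CS and HFR against HFS, so that opposite signs in these comparisons are not separate observations.

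**Figure D2:**
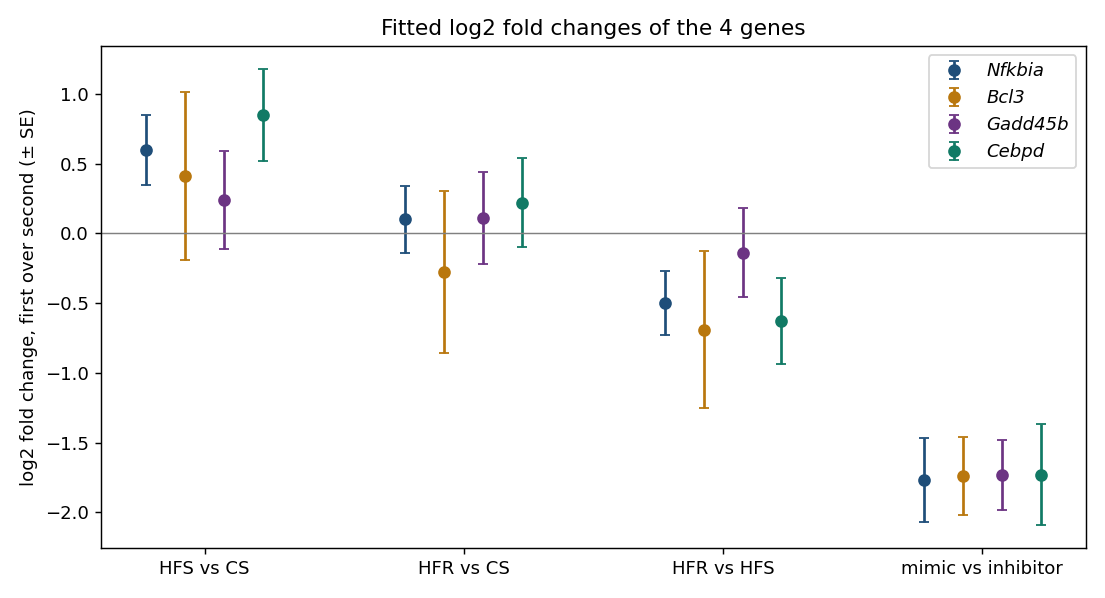
Log2 fold changes of the 4 genes in the 4 comparisons from the edgeR fits, with the first named group over the second, and error bars of 1 SE. The values for mimic against inhibitor lie between -1.77 and -1.73, whereas the DIO values lie between -0.69 and 0.85.

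The order of the group means was CS, HFR, HFS, mimic, inhibitor for *Nfkbia*, *Gadd45b* and *Cebpd*, and HFR, CS, HFS, mimic, inhibitor for *Bcl3*. Among the 3 DIO groups, neighbours in these orders overlapped. For *Nfkbia* the HFS and mimic libraries also overlapped, at 56.5 to 77.4 CPM and 64.0 to 102.2 CPM. For *Bcl3*, *Gadd45b* and *Cebpd* every mimic library was above every DIO library, narrowly for *Gadd45b* (29.9 against 27.0 CPM) and widely for *Cebpd* (95.5 against 35.5 CPM). The experiments differed in age, surgery, fasting, RNA extraction kit and the stated use of molecular identifiers, and these cannot be told apart, so no test was made across them.

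Within the miR-211 groups the 4 genes deviated from their group means in much the same libraries. Inhibitor replicate 2 was the highest inhibitor library for all 4 genes, mimic replicate 4 was the highest mimic library for all 4, and mimic replicate 3 was the lowest mimic library for all 4. Mimic replicate 4 was also the shallowest of the 8 libraries, with 1275263 counts. The part of depth in these deviations was not tested. Over the 8 libraries, Pearson's r of the deviations in log2 CPM was 0.86 for *Nfkbia* and *Gadd45b* (exact permutation p = 0.00868, adjusted 0.0486), 0.84 for *Nfkbia* and *Cebpd* (exact p = 0.0122, adjusted 0.0486) and 0.89 for *Bcl3* and *Cebpd* (exact p = 0.0122, adjusted 0.0486). The other pairs gave r = 0.80 for *Nfkbia* and *Bcl3* (exact p = 0.0226, adjusted 0.0677), 0.83 for *Bcl3* and *Gadd45b* (exact p = 0.0312, adjusted 0.075) and 0.65 for *Gadd45b* and *Cebpd* (exact p = 0.0938, adjusted 0.188). The adjustment was made over 12 relations, 6 pairs in each experiment, and every ordering of the libraries within groups was used.

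The calls among these relations were not stable, and for the pairs with *Gadd45b* r itself rested on few libraries. Spearman's rho was 0.86, 0.83 and 0.93 for the 3 pairs that passed, with exact permutation p of 0.0156, 0.026 and 0.00694, but none passed after adjustment (0.0938, 0.104 and 0.0833). For the others it was 0.71 (exact p = 0.0747, adjusted 0.179) for *Nfkbia* and *Bcl3*, 0.48 (exact p = 0.22, adjusted 0.378) for *Bcl3* and *Gadd45b* and 0.69 (exact p = 0.0677, adjusted 0.179) for *Gadd45b* and *Cebpd*. Without the 2 libraries farthest from the median, r stayed at 0.88 for *Nfkbia* and *Cebpd*, 0.93 for *Bcl3* and *Cebpd* and 0.75 for *Nfkbia* and *Bcl3*. It fell to 0.54 for *Nfkbia* and *Gadd45b*, to 0.28 for *Gadd45b* and *Cebpd* and to 0.04 for *Bcl3* and *Gadd45b*. Each of the 3 relations that passed lost its call when most single libraries were left out, in 6, 7 and 6 of 8 fits. Leaving out inhibitor replicate 2 gave r = 0.54 for *Nfkbia* and *Gadd45b* (exact permutation p = 0.285, adjusted 0.597).

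In the 10 DIO libraries none of the 6 relations passed. Pearson's r was -0.18 for *Nfkbia* and *Bcl3*, 0.34 for *Nfkbia* and *Gadd45b*, 0.38 for *Nfkbia* and *Cebpd*, -0.03 for *Bcl3* and *Gadd45b*, 0.37 for *Bcl3* and *Cebpd* and -0.09 for *Gadd45b* and *Cebpd*, and exact permutation tests left every adjusted p at 0.597 or above. Spearman's rho ran from -0.27 to 0.56. Single libraries moved these values widely. *Bcl3* and *Cebpd* reached r = 0.86 without HFR replicate 2 (exact permutation, adjusted p = 0.0365, a call) and -0.02 without HFR replicate 1. *Nfkbia* and *Cebpd*, positive in all 10 fits that left out a library, ranged from 0.11 without HFR replicate 2 to 0.83 without HFR replicate 1, where the adjusted exact permutation p was 0.0741. Without CS replicate 2 and HFS replicate 2, r lay between -0.49 and 0.32 over the 6 pairs. CS replicate 3 was the lowest CS library for *Nfkbia*, *Bcl3* and *Cebpd*, and HFS replicate 1 the highest HFS library for the same 3 genes. All 4 genes lay above their group mean in CS replicate 2 and HFS replicate 1. They all lay below it in CS replicate 3 and HFS replicate 3. The HFR libraries, however, ranked differently for each gene. Whether the relations differed between the experiments was not tested, and the low counts of *Bcl3* limit what its DIO deviations can show.

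**Figure D3:**
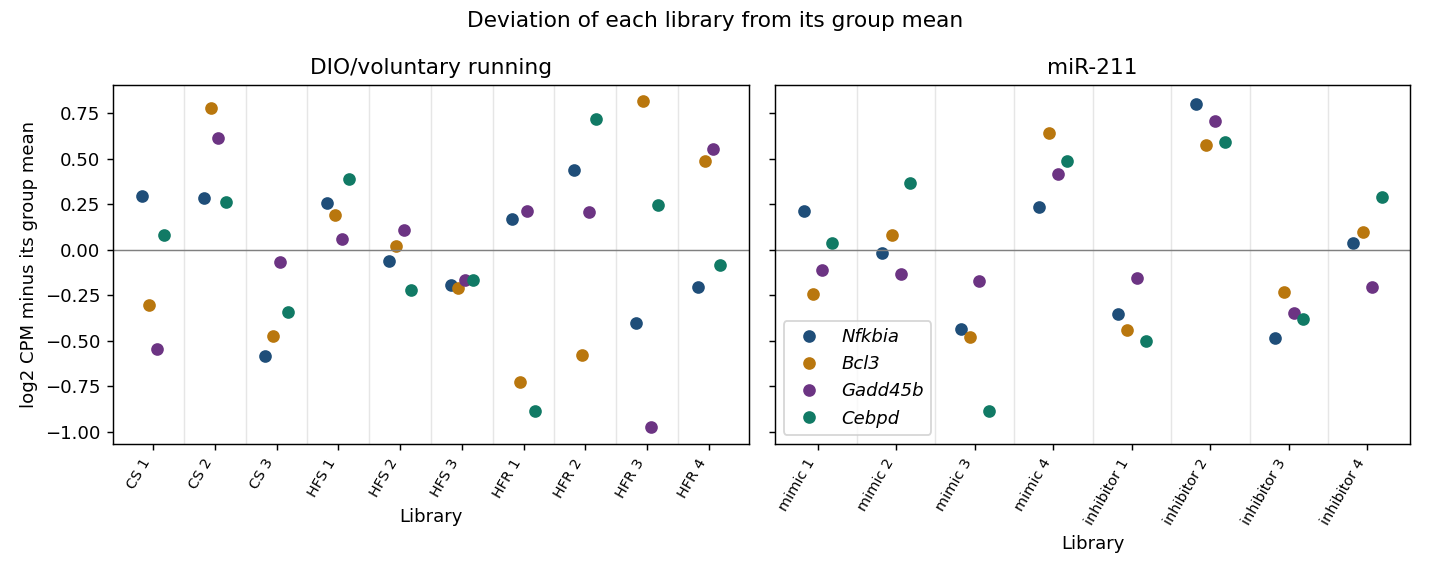
Deviation of each library from its group mean in log2 CPM, for the 4 genes (colours), with the 10 DIO libraries on the left and the 8 miR-211 libraries on the right. In inhibitor replicate 2, mimic replicate 4, CS replicate 2 and HFS replicate 1 all 4 genes lie above 0. In mimic replicate 3, inhibitor replicates 1 and 3, CS replicate 3 and HFS replicate 3 all lie below 0. In HFR replicates 1 to 4 the genes lie on both sides.

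Across all 18 libraries, with group means removed, each gene was also set against the 9364 other genes tested in both experiments, and the libraries share depth and handling, so these are descriptions. The genes closest to *Bcl3* were *Myl12b*, a myosin light chain (r = 0.91), *S100a4*, a calcium-binding protein (r = 0.91), and *Mt2A*, a metallothionein (r = 0.88). *Ier5l*, an immediate early response gene, was closest to *Gadd45b* (r = 0.88). The other 8 of the 12 nearest genes had no symbol in the tables used here. Among the 4 genes, *Cebpd* stood at place 152 for *Nfkbia* (r = 0.63) and at place 515 for *Bcl3* (r = 0.58), and *Gadd45b* stood at place 391 for *Nfkbia* (r = 0.54). *Bcl3* was at place 2445 for *Nfkbia* (r = 0.24), and *Cebpd* at place 2467 for *Gadd45b* (r = 0.21). The median over genes lay between -0.02 and 0.01.

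The pathway around the 4 genes was described with 8 lists that hold 103 symbols, of which 60 could be joined to an identifier. The symbols came from the study's own tables, 52 of the 60 from its mimic and inhibitor table and 12 from its diet table, so the joined genes were largely selected on these libraries and their directions are not independent evidence. Of 53 joined genes tested in mimic against inhibitor, 13 were called lower in mimic and 0 higher, with a median log2 fold change of -1.62. All 53 had a negative sign, against 48.4% of all genes and a median of 0.01 over all genes. Leaving the 4 genes out, 11 of 49 were called, with a median of -1.5. The count rested on single libraries. It was 0 without mimic replicate 1, 2 or 3 or inhibitor replicate 4, 2 without mimic replicate 4, 11 without inhibitor replicate 2, 20 without inhibitor replicate 3 and 30 without inhibitor replicate 1, while the median stayed between -1.79 and -1.41.

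Of the subunits of NF-kB itself, 2 of 5 were joined and neither was called. *Rela*, the main activating subunit, was at 48.2 ± 6.06 CPM (SD, n = 4) in mimic and 75.3 ± 21.5 CPM (SD, n = 4) in inhibitor, with a log2 fold change of -0.64 (edgeR adjusted p = 0.231). *Nfkb2*, the precursor of p52, had a value of -1.62 (edgeR adjusted p = 0.0631). The IkB and feedback list had 8 of 14 genes joined, 7 tested and 3 called lower in mimic, with a median of -1.77. Beside *Bcl3* these were *Nfkbiz*, another nuclear IkB (-1.80, edgeR adjusted p = 0.0361), and *Zfp36*, which speeds the decay of cytokine mRNAs (-1.86, edgeR adjusted p = 0.0298).

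Among receptors and signalling proteins upstream of NF-kB, 6 of 18 were joined, 5 tested and 2 called lower in mimic, with a median of -1.11. They were the TNF receptor *Tnfrsf1a* (-0.93, edgeR adjusted p = 0.038) and the IL-17 receptor *Il17ra* (-1.11, edgeR adjusted p = 0.0434). Of the NF-kB targets 16 of 20 were joined, 13 tested and 4 called lower in mimic, with a median of -2.46, the lowest of the 8 lists. The chemokine *Cxcl1* went from 154.4 ± 65.2 CPM (SD, n = 4) in inhibitor to 20.7 ± 9.6 CPM (SD, n = 4) in mimic, a log2 fold change of -2.90 (edgeR adjusted p = 0.0361). The other 3 were the adhesion molecule *Icam1* (-1.88), the survival gene *Ier3* (-1.68) and *Tnfaip6*, a TNF-induced matrix protein (-1.66), with edgeR adjusted p of 0.0485, 0.038 and 0.038.

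In the list of the GADD45 family and other stress genes 8 of 9 genes were joined and tested, and 3 were called lower in mimic, with a median of -1.24. All 3 members of the GADD45 family were among them, since *Gadd45a* (-1.07, edgeR adjusted p = 0.0377) and *Gadd45g* (-1.72, edgeR adjusted p = 0.038) were called beside *Gadd45b*. Of the C/EBP family only *Cebpd* was joined (1 of 6). The acute phase and IL-6/STAT3 list had 15 of 21 genes joined, 13 tested and 0 called by edgeR, with a median of -1.40. *Slc39a14*, an acute phase zinc transporter, was the nearest to a call (-0.88, edgeR adjusted p = 0.0676), and 4 genes of that list were called when no filter on low counts was used. In the glucocorticoid list 4 of 10 were joined and tested, with a median of -1.0, and only *Sgk1*, a kinase induced by these hormones, was called lower in mimic (-1.21, edgeR adjusted p = 0.0377).

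**Figure D4:**
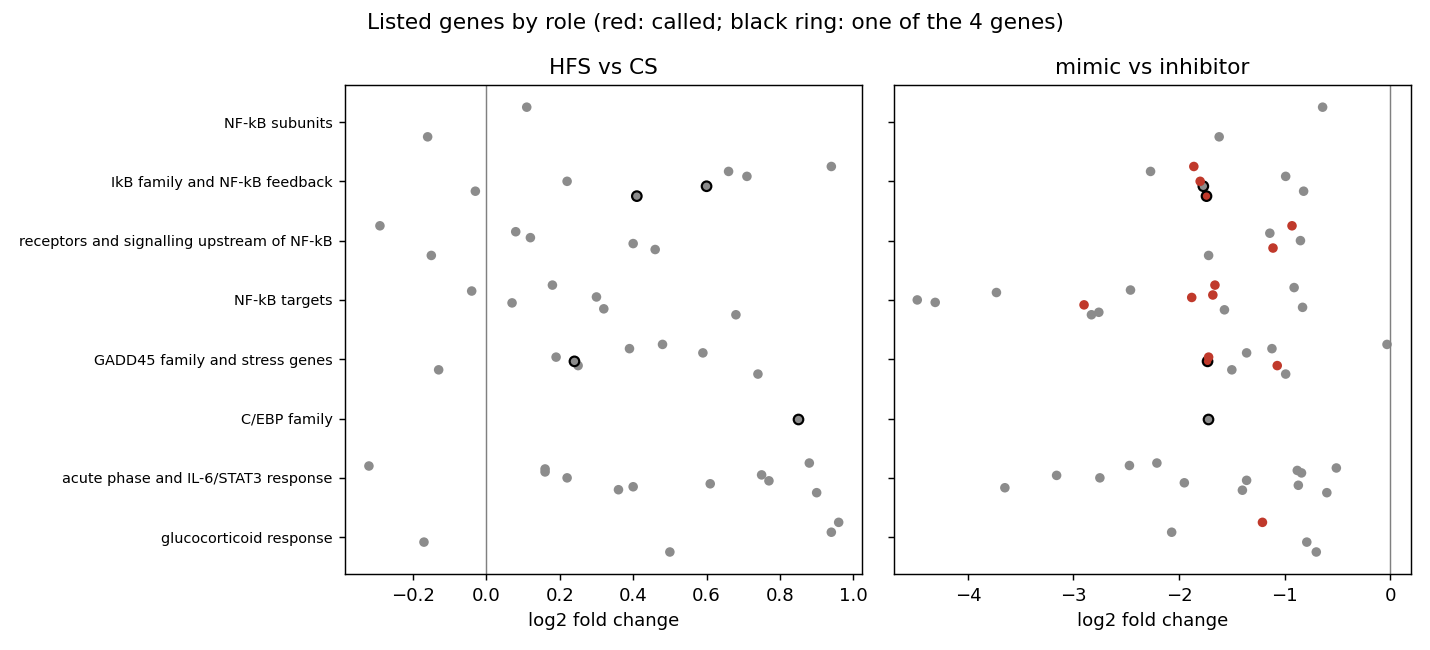
Log2 fold change of each joined gene of the 8 lists in HFS against CS (left) and in mimic against inhibitor (right), with called genes in red and a black ring around the 4 genes. In mimic against inhibitor all 53 genes lie below 0 and 13 are called, and in HFS against CS 37 of 45 lie above 0 and 0 are called.

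The same lists in the DIO experiment had 45 genes tested and 0 called by edgeR in each comparison. In HFS against CS 37 had a positive and 8 a negative sign (50.4% of all genes were positive), with a median log2 fold change of 0.36. In HFR against HFS 41 had a negative sign (51.4% of all genes) and the median was -0.25, and in HFR against CS 23 were positive and 22 negative with a median of 0.01. Without CS replicate 2 and HFS replicate 2, of 44 genes tested, 38 were positive in HFS against CS (median 0.55), 39 negative in HFR against HFS (median -0.37) and 29 positive in HFR against CS (median 0.23), with 0 called by edgeR in each. Both of the first rest on the same HFS libraries. Among the genes named above, *Sgk1* had a log2 fold change of 0.96 in HFS against CS (edgeR adjusted p = 0.994), with means of 108.9 ± 11.1 and 55.9 ± 25.2 CPM (SD, n = 3 each). *Zfp36* had 0.94 (edgeR adjusted p = 0.994), and *Gadd45a* and *Gadd45g* had 0.25 and 0.19. The values were 0.46 for *Il17ra*, 0.30 for *Ier3*, 0.18 for *Tnfaip6* and 0.16 for *Slc39a14*. They were 0.11 for *Rela*, 0.08 for *Tnfrsf1a*, 0.07 for *Icam1* and -0.16 for *Nfkb2*. *Tnfrsf1a* had -0.59 in HFR against HFS (edgeR adjusted p = 0.989).

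Markers of other cells were also followed in the miR-211 libraries. Of 7 genes listed as markers of blood myeloid cells, 5 were joined (*S100a8*, *Lyz2*, *Trem1*, *Selp* and *Mcemp1*). They summed to 139.4 to 189.4 CPM in mimic and to 218.0, 1179.6, 444.3 and 826.2 CPM in inhibitor replicates 1 to 4. *Lyz2* alone had means of 151.0 ± 24.2 CPM in mimic and 589.5 ± 372.7 CPM in inhibitor (SD, n = 4 each). The sum thus mainly follows that gene. The summed levels of the groups did not overlap, and inhibitor replicate 2 stood highest, as it did for all 4 genes. In mimic, replicate 4 was highest, as for the 4 genes, but replicate 1 was lowest rather than replicate 3. All 5 markers were joined through the study's own table of genes that differed between these libraries. Their separation is therefore not independent evidence. None of the 5 was at 0 in either group, and of the 3 tested 0 were called by edgeR. The 4 joined microglia markers of 9 (*C1qa*, *C1qb*, *C1qc* and *Tyrobp*) summed to 299.7 to 454.7 CPM in mimic and 374.4 to 758.6 CPM in inhibitor, so the groups overlapped. Inhibitor replicate 2 was their highest inhibitor library, but mimic replicate 3, the lowest mimic library for all 4 genes, was their highest mimic library. *Slco1c1*, a transporter of brain endothelium and the only marker of 5 joined for that cell type, was higher in mimic (49.9 to 64.1 against 21.4 to 31.8 CPM, log2 fold change 1.16, edgeR adjusted p = 0.0286). It was joined through the same table of the study, so its direction is not independent evidence either. The part of these cells in the values of the 4 genes was not tested.

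Other marker lists were represented by a single gene or none. *Gfap* (1 of 5 astrocyte markers) ranged from 1105.4 to 2893.1 CPM in mimic and 1892.1 to 2697.8 CPM in inhibitor, and *Mbp* (1 of 4 oligodendrocyte markers) from 5303.7 to 10266.9 and 6396.7 to 9656.2 CPM. *Prrx2* (1 of 5 markers of meninges and fibroblasts) was at 2.09 to 7.07 CPM in mimic and 7.13 to 26.1 CPM in inhibitor, and none of the 4 markers of tanycytes and ependyma could be joined. In the DIO experiment the microglia markers summed to 277.5 to 425.2 CPM in CS, 400.5 to 518.8 CPM in HFS and 294.9 to 402.5 CPM in HFR, and the blood myeloid markers to 59.5 to 114.6, 99.2 to 156.1 and 45.7 to 130.1 CPM. Of these, *Lyz2* alone had means of 91.5, 125.9 and 77.3 CPM in CS, HFS and HFR. *Gfap* was at 470.1 to 1347.1 CPM in CS, 1034.8 to 2649.9 CPM in HFS and 378.4 to 1681.2 CPM in HFR. *Mbp* was at 7492.1 to 12045.6 CPM in CS, 11754.9 to 17710.6 CPM in HFS and 10195.4 to 14229.9 CPM in HFR (log2 fold change 0.67 in HFS against CS, edgeR adjusted p = 0.994). *Prrx2* was at 4.08 to 17.1 CPM in CS, 14.4 to 24.8 CPM in HFS and 0.798 to 11.3 CPM in HFR, so that HFS and HFR did not overlap (log2 fold change -2.0 in HFR against HFS, edgeR adjusted p = 0.989). *Mcemp1* was at 0 in the 3 DIO groups and *Trem1* in HFR. The part of these cells in the DIO values of the 4 genes was not tested. The microglia markers, *Gfap* and *Mbp* were joined through the study's table of diet genes, which was selected on animals that include 8 of the DIO libraries. Their DIO directions are therefore not independent of that selection. *Prrx2* was joined through the study's mimic and inhibitor table, so its direction in the miR-211 libraries is not independent evidence.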

How the data were processed

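Reads had been trimmed (Cutadapt), aligned to Rnor6 (STAR 2.7.9a) and freed of duplicates (SAMtools) by the authors, and HTSeq 0.13.5 had assigned them to Ensembl genes by its union rule, ignoring strand. The deposited values are raw counts of 32883 genes per library, corrected for molecular identifiers in the miR-211 files. The submitters' notes also name DESeq2. Rows that name no gene were left out of totals. They held 22.37% to 26.29% (no feature) and 17.17% to 20.63% (not unique) of the DIO reads.

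Samples were grouped by their labels. Counts were analysed with edgeR 4.0.16 in R 4.3.3 (filterByExpr, TMM, robust quasi-likelihood tests). There was 1 fit over the 10 DIO libraries (11892 genes) and 1 over the 8 miR-211 libraries (9625 genes). P-values were adjusted by Benjamini-Hochberg over all genes tested, and calls needed an adjusted p under 0.1 (DIO) or 0.05 (miR-211). The common biological coefficient of variation was 0.234 and 0.205. DESeq2 1.42.0 was an alternative, as were other normalizations and filters, the replicate number as a block, thinned counts and each library left out. Counts of listed genes without libraries were added after seeing the data. The fit was tested on simulated data. Deviations from group means used log2 CPM with a prior count of 2. Exact tests were enumerated in Python 3.11.15 with numpy 2.4.6, with ranks from scipy 1.17.1.

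The 4 genes, the lists and the tests were chosen with earlier results of these data known. Named genes were the 4 genes, called genes of the lists or up to 4 per list with the smallest p in mimic against inhibitor, and the 3 nearest genes by correlation. Symbols came from the study's tables (607 identifiers). No rat genome of the build used was at hand, so no coordinates or sequences are given.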

Additional observations from a re-analysis of the deposited data

Results flagged for a closer look

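Dixon's ratio, the gap of the highest or lowest library to its nearest neighbour over the range of the group, was computed for each of the 4 genes in the groups of 4 libraries (24 ratios). It passed the 95% critical value for *Gadd45b* in both miR-211 groups. Mimic replicate 4, at 45.6 CPM, stood above the other mimic libraries at 29.9 to 31.3 CPM, with a ratio of 0.909. Inhibitor replicate 2, at 176.6 CPM, stood above the other inhibitor libraries at 84.6 to 96.7 CPM, with a ratio of 0.869. Chance passes about 1 in 20 such groups. The *Gadd45b* call in mimic against inhibitor held without either library.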

How the results depend on the processing

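The 4 genes kept their direction in mimic against inhibitor under every alternative run, and none was called in a DIO comparison under any. *Nfkbia* (log2 fold change -1.77) was called at an adjusted p under 0.1, with a minimum of 5 CPM (-1.77, edgeR adjusted p = 0.0489), with DESeq2 (-1.76) and with the replicate block (-1.7). *Cebpd* was called with DESeq2 (-1.72) and with the replicate block (-1.74, edgeR adjusted p = 0.00851). Thinned to the shallowest library, *Bcl3* and *Gadd45b* were still called (edgeR adjusted p = 0.0163 and 0.00839). Leaving out single libraries gave -1.92 to -1.43 for *Nfkbia*, -1.96 to -1.53 for *Bcl3* and -1.87 to -1.44 for *Gadd45b*. In HFR against CS it gave -0.13 to 0.26 for *Nfkbia*, -0.61 to 0.34 for *Bcl3*, -0.12 to 0.5 for *Gadd45b* and -0.06 to 0.44 for *Cebpd*, and in HFR against HFS -0.33 to 0.09 for *Gadd45b*. Without CS replicate 2 and HFS replicate 2, *Bcl3* reversed to 0.34 in HFR against CS, and with the replicate block *Gadd45b* reversed to -0.1.

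Genes called in mimic against inhibitor (43) numbered 125 without a filter, 79 at an adjusted p under 0.1, 199 with DESeq2 and 0 to 111 without single libraries, with 0 without mimic replicate 1 or 3, 2 without mimic replicate 2, 13 without mimic replicate 4, 1 without inhibitor replicate 4, 26 without inhibitor replicate 2 and 111 without inhibitor replicate 1. HFS against CS (1) had 0 with the replicate block, at an adjusted p under 0.05 or with only the 2 groups, 2 with DESeq2 and 0 to 2 without single libraries. HFR against CS (2) had 8 without a filter, 0 with the block, 16 with DESeq2 and 0 to 3 without single libraries. HFR against HFS (0) had 2 with the block.

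Same-numbered libraries had r from -0.12 to 0.15 over 9 DIO pairs and 0.05 to 0.21 over 4 miR-211 pairs. For unlike numbers r ran from -0.23 to 0.22 over 24 DIO pairs and from -0.29 to 0.19 over 12 miR-211 pairs. Of the libraries, 4 of 10 in DIO and 5 of 8 in miR-211 correlated best with their own number. The labels state no pairing, so the numbers were not taken as one. Whether same-numbered miR-211 libraries shared a batch was not tested, and these values cannot exclude it. With the replicate block 52 genes were called in mimic against inhibitor, all 4 of the genes among them.

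For the deviations in the miR-211 libraries, CPM without TMM factors gave r = 0.86, 0.85 and 0.90 for the 3 relations that passed, each with an adjusted p of 0.0556 in the exact permutation test. Without single libraries r ranged from 0.54 to 0.92 for *Nfkbia* and *Gadd45b*, 0.82 to 0.89 for *Nfkbia* and *Cebpd*, 0.86 to 0.93 for *Bcl3* and *Cebpd* and 0.69 to 0.91 for *Nfkbia* and *Bcl3*. In the DIO libraries it ranged from -0.64 to 0.11 for *Nfkbia* and *Bcl3*, -0.03 to 0.62 for *Nfkbia* and *Gadd45b*, 0.11 to 0.83 for *Nfkbia* and *Cebpd*, -0.48 to 0.8 for *Bcl3* and *Gadd45b*, -0.02 to 0.86 for *Bcl3* and *Cebpd* and -0.26 to 0.13 for *Gadd45b* and *Cebpd*, and passed for *Bcl3* and *Cebpd* without HFR replicate 2 (r = 0.86, adjusted exact permutation p = 0.0365). The causes of these changes were not tested. Depth limits *Bcl3* in the DIO libraries, with 4 to 20 counts each.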
